A study of Homo sapiens with 12 samples.

Results

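Complement proteases, the central component C3 and the regulators that shield host cells were measured as RNA in breast epithelial cultures. The 9 genes, C1R, C1S, C1RL, C3, CFB, CFI, CD46, CD55 and CD59, were taken by their symbols in the probe annotation of the series, and each had 1 probe set among the 17687 genes with one. They were chosen by their log2 signals in these same cultures, across all 3 groups. Their levels and differences are therefore given as a description, without a test.

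RNA came from 12 cultures of isogenic MCF-10A lines, immortalized human mammary epithelium that forms no tumours, with 4 arrays in each of 3 groups. The co-culture held both mutant lines together and was harvested when about 75% of its cells carried the HER2 mutation. The HER2-mutant line carried HER2 L755S, a change in the kinase domain of that receptor, and was grown alone. The PIK3CA-mutant line carried PIK3CA E545K, a change in the PI3K catalytic subunit encoded by that gene, and was also grown alone. EGF in the medium was kept at a physiologic level in all 3 groups, which had no other treatment and were harvested between day 7 and day 14. No parental MCF-10A culture was analysed here, and "higher" in one line may equally be lower in the other. The labels name 1 line per mutation and do not say whether it was 1 clone, so line, mutation and harvest day cannot be told apart.

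Complement is a cascade of serum and tissue proteins. In the classical pathway C1q binds a target and activates the serine proteases C1r and then C1s, which cleave the next components. All pathways meet at C3, whose cleavage marks surfaces for uptake, and factor B supplies the protease of the amplifying alternative pathway convertase. Factor I cleaves C3b with CD46 as a cofactor, CD55 speeds the decay of convertases, and CD59 blocks the membrane attack complex. The liver makes most circulating complement, and epithelial cells and fibroblasts also make several components locally.

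Signals are log2 values per probe set, and each of the 9 genes is compared across cultures and never with another gene. Array medians ran from 6.41 to 6.49. A signal was counted as above background when it exceeded the 95th percentile of the 612 negative control probe sets of its array. This level differed by group, at 6.73 to 7.12 in the HER2-mutant line and 6.37 to 6.66 in the co-culture. In the PIK3CA-mutant line it was 6.32 to 6.39. Calls of above background are therefore strictest in the HER2-mutant line, and folds counted from background use the dim group's own level. All 9 genes passed the filter that left 12758 genes for the fit across the series, a level above the 30th percentile on at least 4 of 12 arrays. C1R and C1S exceeded that percentile on 0 of 4 PIK3CA-mutant arrays and on all 8 others.

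All 9 epithelial markers with a probe set, among them KRT5, CDH1 and EPCAM, were above background on all 12 arrays. All 10 hepatocyte markers, among them ALB and APOA1, were at or below it on all 12. Of 9 fibroblast markers, LUM, PDGFRA, PDGFRB, THY1 and COL6A3 were at or below background in all groups. The collagen gene COL1A2 was above it on all 12 arrays, at 8.68 in the co-culture, 8.58 in the HER2-mutant line and 8.44 in the PIK3CA-mutant line. COL1A1 was above it on 1 co-culture, 1 HER2-mutant and 3 PIK3CA-mutant arrays. DCN, the gene of the matrix proteoglycan decorin, moved with the complement genes, at 8.03 in the co-culture, 10.70 in the HER2-mutant line and 7.07 in the PIK3CA-mutant line. FAP moved the opposite way, at 11.19, 5.22 and 11.17 in the same order of groups. The summed log2 level of the fibroblast list was 11.36 to 11.85 in the co-culture, 10.97 to 11.35 in the HER2-mutant line and 11.41 to 11.67 in the PIK3CA-mutant line. Of 11 blood and endothelial markers, 3 in the co-culture, 0 in the HER2-mutant line and 3 in the PIK3CA-mutant line (CD14, CD68 and CSF1R) were above background on all 4 arrays, and PTPRC was at or below it in all groups. The log2 of the summed signals of these 11 was 9.56 to 9.67 in the co-culture and 8.67 to 8.95 in the HER2-mutant line. In the PIK3CA-mutant line it was 9.73 to 10.01. The part of these markers in the complement levels was not tested.

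The promoter windows of the proteases and factors with a measured difference of at least 1 on the log2 scale are shown first. These genes were brighter together in the HER2-mutant line. For CFI, dim in the PIK3CA-mutant line, the difference counted from the background level of that line was 0.89. The RefSeq table of GRCh38.p14 held windows for 7 of the 9 genes, each reaching from 250 bases before a gene's start to 50 after it. C1S and C3 are named only. Sequences run 5′ to 3′ on the strand of the gene, and capitals mark matches to any of 6 motifs searched on both strands. C1R is on the minus strand with windows at chr12:7092396-7092695 and chr12:7091844-7092143, C1RL on the minus strand at chr12:7109165-7109464, CFB on the plus strand at chr6:31945845-31946144 and CFI on the minus strand at chr4:109801950-109802249.
C1R, upstream start: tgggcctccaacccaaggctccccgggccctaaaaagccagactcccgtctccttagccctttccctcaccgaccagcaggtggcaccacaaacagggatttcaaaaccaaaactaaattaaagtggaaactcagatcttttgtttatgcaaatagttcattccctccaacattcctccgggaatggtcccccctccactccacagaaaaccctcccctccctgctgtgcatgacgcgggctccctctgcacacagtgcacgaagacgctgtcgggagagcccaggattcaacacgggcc
C1R, downstream start: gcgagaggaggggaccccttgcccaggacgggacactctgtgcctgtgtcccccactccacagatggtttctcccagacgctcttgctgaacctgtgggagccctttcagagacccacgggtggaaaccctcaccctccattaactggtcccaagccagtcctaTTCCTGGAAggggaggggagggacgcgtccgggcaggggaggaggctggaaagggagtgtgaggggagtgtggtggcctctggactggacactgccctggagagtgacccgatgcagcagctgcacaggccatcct
C1RL: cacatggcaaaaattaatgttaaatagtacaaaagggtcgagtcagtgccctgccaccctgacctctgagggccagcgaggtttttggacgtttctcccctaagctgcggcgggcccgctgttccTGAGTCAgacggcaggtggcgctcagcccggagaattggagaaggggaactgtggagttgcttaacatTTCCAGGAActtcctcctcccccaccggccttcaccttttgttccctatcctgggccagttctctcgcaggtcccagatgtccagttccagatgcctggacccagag
CFB: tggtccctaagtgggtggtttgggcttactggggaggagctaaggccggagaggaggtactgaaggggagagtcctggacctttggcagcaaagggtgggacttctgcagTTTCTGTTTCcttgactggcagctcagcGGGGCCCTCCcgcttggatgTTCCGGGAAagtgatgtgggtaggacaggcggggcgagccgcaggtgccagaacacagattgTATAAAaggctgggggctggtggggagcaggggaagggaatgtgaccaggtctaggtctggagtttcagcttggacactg
CFI: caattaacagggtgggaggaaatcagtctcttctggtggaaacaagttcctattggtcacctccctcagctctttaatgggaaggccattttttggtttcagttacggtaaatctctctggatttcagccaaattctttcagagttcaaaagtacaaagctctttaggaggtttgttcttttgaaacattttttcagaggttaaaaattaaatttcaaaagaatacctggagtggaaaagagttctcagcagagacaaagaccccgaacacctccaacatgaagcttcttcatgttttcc

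The motifs were the GAS element of STAT factors (TTCNNNGAA), the core of the interferon-stimulated response element (GAAA, any 2 bases, GAAA), NF-kB, AP-1 (TGACTCA), the forkhead motif (TGTTTAC) and the TATA box (TATAAA). CFB held 4 matches, an interferon response core 140 bases before the start, NF-kB at 112, GAS at 92 and a TATA box at 30. C1RL held an AP-1 match at 125 bases and a GAS match at 57 bases before the start. The downstream C1R window held a GAS match 86 bases before the start, and the upstream C1R window and the CFI window held none of the 6 motifs. The windows of CD46 and CD55 held none either, and those of CD59 held GAS or AP-1 at 3 of 4 starts. The GAS match at CD59 starts 1 and 2 is the same site, since their windows overlap. Within each of these windows, matches overlapping each other numbered 0. Of all 35116 windows of the same length, 7.66% held GAS, 3.57% the interferon response core, 11.3% NF-kB, 4.95% AP-1, 3.42% the forkhead motif and 11.5% the TATA box. A match describes letters and not a bound site.

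The single cultures allow the complement genes of both lines to be compared. The proteases C1R and C1S, their relative C1RL, C3, CFB and CFI were brighter in the HER2-mutant line, and C1R, C1S and CFI were not above background in the PIK3CA-mutant line. The membrane regulators CD46 and CD55 were higher by less than 1 on the log2 scale, and CD59 was lower. In 8 of 9 genes every HER2-mutant array lay above every PIK3CA-mutant array, and in 1 of 9 below. Over all genes tested the same held for 26.4% above and 26.6% below. The measured median difference was 2.67 over the 9 genes, that of CFI, which was not above background in the PIK3CA-mutant line. With dim genes at their bound it was 2.27, beside 0.05 measured over all genes, whose 5th and 95th percentiles were -1.98 and 1.36. Since these values chose the genes, nothing is read from the counts.

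**Figure D1:**
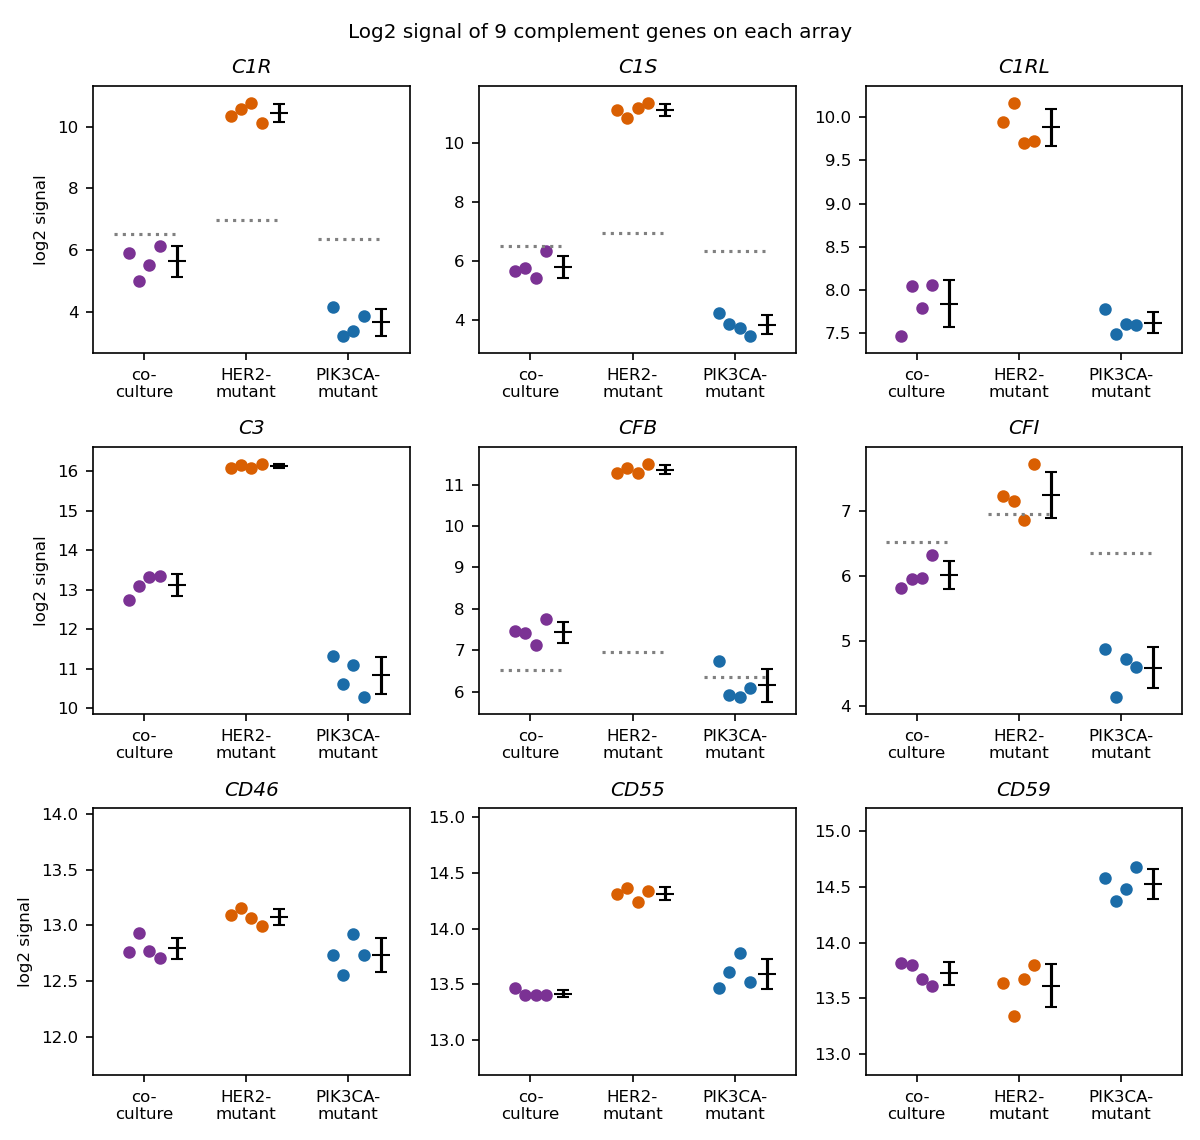
Log2 signal (y axis, a scale per panel) of each complement gene on the 4 arrays of each culture group (points), with the mean and SD (bars); dotted lines mark the mean 95th percentile of negative controls in that group where it falls in range. HER2-mutant arrays stand alone at the top for all genes except CD59, and C1R, C1S and CFI lie under the dotted line in both other groups.

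C1R encodes the protease that cleaves C1s. Its log2 signal was 5.90, 4.99, 5.52 and 6.13 in the co-culture, 10.33, 10.58, 10.75 and 10.11 in the HER2-mutant line and 4.17, 3.23, 3.39 and 3.85 in the PIK3CA-mutant line. The 3 groups did not overlap, with the HER2-mutant line highest and the PIK3CA-mutant line lowest, and only HER2-mutant arrays were above background. The HER2-mutant mean of 10.44 ± 0.28 against 3.66 ± 0.43 in the PIK3CA-mutant line (mean ± SD, n = 4 each) was a measured difference of 6.78 ± 0.23 on the log2 scale (SE of the fit). Counted from the background level, C1R was at least 17.0-fold higher in the HER2-mutant line.

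C1S encodes the protease that cleaves C4 and C2. Its signal was 5.67, 5.77, 5.45 and 6.34 in the co-culture, 11.14, 10.85, 11.19 and 11.36 in the HER2-mutant line and 4.25, 3.89, 3.75 and 3.48 in the PIK3CA-mutant line. As for C1R, the groups did not overlap and 0 of 8 arrays outside the HER2-mutant line were above background. The means were 11.13 ± 0.21 in the HER2-mutant line and 3.84 ± 0.32 in the PIK3CA-mutant line (mean ± SD, n = 4 each), a difference of 7.29 ± 0.19 (SE) and at least 27.4-fold.

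C1RL, a C1r-like protease gene beside C1R and C1S on chromosome 12, was above background on all 12 arrays. Its signal was 7.47, 8.04, 7.79 and 8.06 in the co-culture, 9.95, 10.16, 9.70 and 9.72 in the HER2-mutant line and 7.78, 7.49, 7.61 and 7.59 in the PIK3CA-mutant line. The HER2-mutant arrays stood above the rest by 2.27 ± 0.15 on the log2 scale over the PIK3CA-mutant line (SE), a 4.81-fold difference. The co-culture arrays overlapped those of the PIK3CA-mutant line.

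The genes next to this cluster give a measure that the choice of genes did not use. They were picked after the complement values were seen, as the 3 protein-coding genes on each side in RefSeq GRCh38.p14, and 5 of the 6 were tested. Between the single cultures, CLSTN3 passed as higher in the HER2-mutant line (limma adjusted p 1.44e-08) but was not above background on any PIK3CA-mutant array, EMG1 differed by -1.22 (5.08e-08), and LPCAT3 (-0.19, 0.148) and PEX5 (0.12, 0.416) did not pass. RBP5 passed (0.0093) but was not above background in either line. Over the neighbours of all 9 genes, taken likewise, 24 of 39 were tested, and between the lines 5 passed as higher in HER2-mutant cultures and 10 as lower, against 30% and 29.5% of all genes. Among the lower were PLXNA2 near CD46 (at least 14.1-fold, adjusted p 1.1e-16), MCUB near CFI (at least 4.96-fold, 1.39e-12) and TNFSF9 near C3 (-1.88, 4e-08), named after their values were seen. EMG1 encodes a ribosome assembly enzyme, LPCAT3 a phospholipid acyltransferase and PEX5 a peroxisomal import receptor.

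C3 encodes the component on which all pathways converge, and it was bright in every culture. Its signal was 12.74, 13.09, 13.33 and 13.34 in the co-culture, 16.09, 16.16, 16.09 and 16.17 in the HER2-mutant line and 11.33, 10.61, 11.10 and 10.30 in the PIK3CA-mutant line. The groups did not overlap, with the HER2-mutant line highest and the PIK3CA-mutant line lowest. The mean of 16.13 ± 0.04 in the HER2-mutant line against 10.84 ± 0.47 in the PIK3CA-mutant line (mean ± SD, n = 4 each) was a difference of 5.29 ± 0.16 (SE), or 39.2-fold.

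CFB encodes factor B, the protease of the alternative pathway convertase. Its signal was 7.46, 7.41, 7.13 and 7.75 in the co-culture, 11.28, 11.41, 11.28 and 11.49 in the HER2-mutant line and 6.74, 5.92, 5.88 and 6.08 in the PIK3CA-mutant line. The groups did not overlap, and 1 of 4 PIK3CA-mutant arrays was above background. The HER2-mutant mean was 11.37 ± 0.11 and the PIK3CA-mutant mean 6.15 ± 0.40 (SD, n = 4 each), a measured difference of 5.21 ± 0.17 (SE). With the dim PIK3CA-mutant arrays raised to their background level, CFB was at least 30.2-fold higher in the HER2-mutant line. Beside CFB on chromosome 6, C2, its classical pathway relative, and ZBTB12 were not above background on any array, and EHMT2, which encodes a histone methyltransferase, passed as higher in HER2-mutant cultures, by 1.62 (limma adjusted p 3.45e-10).

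CFI encodes factor I, the protease that inactivates C3b and C4b. Its signal was 5.82, 5.95, 5.97 and 6.33 in the co-culture, 7.24, 7.16, 6.87 and 7.72 in the HER2-mutant line and 4.87, 4.14, 4.72 and 4.60 in the PIK3CA-mutant line. The groups did not overlap, and only the HER2-mutant arrays were above background. The difference between the single cultures was 2.67 ± 0.19 (SE), and at least 1.86-fold from the PIK3CA-mutant background level. In the HER2-mutant line CFI lay close to background, with replicate 2 at 7.16 against a background level of 7.12. Background levels were higher in that line, at 6.73 to 7.12, against 6.32 to 6.39 in the PIK3CA-mutant line. The fold for CFI therefore depends on which background level is taken.

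The membrane regulators were bright in all groups and differed far less. Each has several transcripts that 1 probe set cannot separate. CD46, the cofactor for factor I, had a signal of 12.76, 12.93, 12.77 and 12.71 in the co-culture, 13.09, 13.16, 13.07 and 12.99 in the HER2-mutant line and 12.73, 12.55, 12.92 and 12.73 in the PIK3CA-mutant line. The HER2-mutant arrays were above all others, by 0.35 ± 0.09 over the PIK3CA-mutant line (SE), or 1.27-fold, and the co-culture overlapped the PIK3CA-mutant line.

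CD55, the decay-accelerating factor, had a signal of 13.47, 13.40, 13.40 and 13.40 in the co-culture, 14.31, 14.37, 14.24 and 14.34 in the HER2-mutant line and 13.47, 13.61, 13.78 and 13.52 in the PIK3CA-mutant line. The HER2-mutant mean exceeded the PIK3CA-mutant mean by 0.72 ± 0.07 (SE), or 1.65-fold. The co-culture met the PIK3CA-mutant line at 13.47.

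CD59, the inhibitor of the membrane attack complex, ran the other way. Its signal was 13.82, 13.80, 13.67 and 13.61 in the co-culture, 13.64, 13.34, 13.67 and 13.80 in the HER2-mutant line and 14.58, 14.37, 14.48 and 14.68 in the PIK3CA-mutant line. The PIK3CA-mutant arrays were above all others, and the HER2-mutant mean differed from theirs by -0.92 ± 0.09 (SE). The co-culture overlapped the HER2-mutant line. CD55 and CD59 are both held in the membrane by a GPI anchor, and their signals differed between the lines in opposite directions.

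Against the HER2-mutant line, the co-culture had far less of the proteases and of C3 although most of its cells were labelled HER2-mutant. In 8 of 9 genes every co-culture array lay below every HER2-mutant array, against 22.3% of all genes tested, 0 of 9 lay above, against 22.1%, and CD59 overlapped (0.11 ± 0.09, SE). The median difference was -2.04 over the 9 genes and -0.05 over all genes. C1S fell by at least 24.4-fold and C1R by at least 15.1-fold, both to the background level. CFB was 15.2-fold lower in the co-culture (-3.93 ± 0.17), C3 8.01-fold lower (SE 0.16) and C1RL 4.11-fold lower (-2.04 ± 0.15, all log2 with SE). CFI was at least 1.65-fold lower, counted from the co-culture background level. CD55 differed by -0.90 ± 0.07 and CD46 by -0.29 ± 0.09 (SE). In these bulk samples, fewer cells of a line and less RNA per cell cannot be told apart.

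Against the PIK3CA-mutant line, the co-culture had more C3 and CFB and less CD59. In 5 of 9 genes (C1R, C1S, C3, CFB and CFI) the co-culture arrays lay above all PIK3CA-mutant arrays, against 11.9% of all genes, in 1 of 9 (CD59) below, against 16.5%, and 3 of 9 overlapped. C3 was 4.89-fold higher (2.29 ± 0.16, SE). CFB was at least 1.99-fold higher, counted as above from the background level, with a measured difference of 1.28 ± 0.17 (SE). C1R, C1S and CFI were not above background in either group, so no fold is given for them. CD59 differed by -0.80 ± 0.09, while C1RL (0.23 ± 0.15), CD46 (0.06 ± 0.09) and CD55 (-0.18 ± 0.07) overlapped. The overlap of C1RL rested on co-culture replicate 1, without which 6 genes lay above. That of CD55 rested on co-culture replicate 1 or PIK3CA-mutant replicate 1, without either of which 2 genes lay below, as also after centring arrays on their medians. These 3 comparisons share arrays and are not independent of one another.

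The share of cells given in the labels allows a blend of the single cultures to be set beside the co-culture. It was taken before the logarithm, as 75% HER2-mutant mean plus 25% PIK3CA-mutant mean. All 4 co-culture arrays lay below it for each of the 9 genes. This held for 8 of 9 at shares of 50% (3 of 4 arrays for CD46) and 90% (2 of 4 for CD59), which were counted after the values were seen. The share of all genes tested with all 4 arrays below the blend was not counted, so nothing is read from these counts. At 75%, for 5 of 9 the mean lay at least 1 below on the log2 scale, against 3.24% of all genes tested. These 5, C1R, C1S, C1RL, C3 and CFB, were all higher in the HER2-mutant line by at least 1 without overlap. CFI shared that trait on measured values (2.67) but lay a measured 0.89 below the blend. Of the 1142 genes tested with that trait, 33.1% lay at least 1 below the blend. The median of the co-culture mean minus the blend was -0.79 over those genes and -0.05 over all genes tested. Over the 1553 genes lower in the HER2-mutant line by at least 1 without overlap it was 0.54, above the blend. The co-culture was at 13.13 for C3 against 15.72 for the blend, and at 7.44 for CFB against 10.96. For C1RL it was at 7.84 against 9.56. C1S lay at least 4.19 below the blend and C1R at least 3.5, since both were not above background in the co-culture. CFI lay at least 0.38 below, CD55 0.75, CD46 0.21 and CD59 0.18.

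On the linear scale the co-culture stood only a short way from the PIK3CA-mutant level towards the HER2-mutant level. Its position was 10.2% for C3, 4.47% for C1RL and 3.98% for CFB, and at most 5.77% for C1R and 3.49% for C1S. It was at most 53.3% for CFI and 15.1% for CD46. CD55 lay outside the range of the single cultures on the PIK3CA-mutant side (-17.9%), and CD59 lay near the HER2-mutant level (90.8%). Over the 1142 genes that were higher in the HER2-mutant line by at least 1 without overlap, the median position was 18.2%. Over the 1553 genes lower by at least 1 without overlap it was 42.9%, and CD59 fell short of that difference. The share of cells need not equal the share of RNA.

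**Figure D2:**
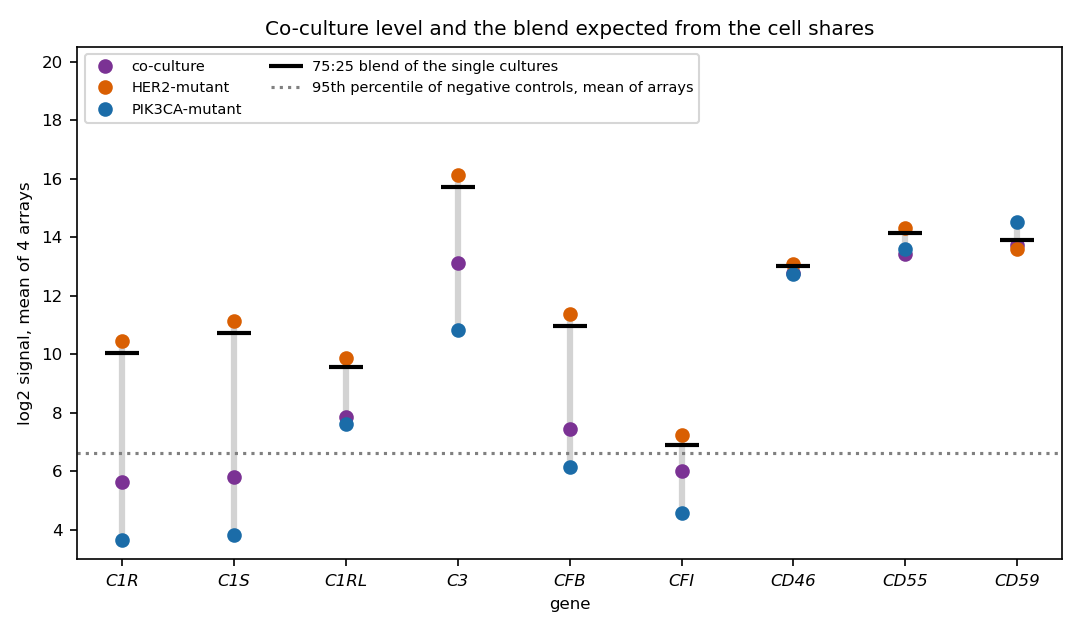
Mean log2 signal of 4 arrays (y axis) for each gene (x axis) in the co-culture, the HER2-mutant line and the PIK3CA-mutant line, with the 75:25 blend as a black bar and the mean 95th percentile of negative controls as a dotted line. The co-culture lies below the blend for every gene, by 3.52 for CFB and 1.72 for C1RL.

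The profiles most like those of 4 complement genes were found over the 12 arrays, as the smallest root mean square difference in log2 signal after centring each gene on its own mean. FBXO32, which encodes a ubiquitin ligase subunit, was nearest to C1S (0.289, Pearson r 0.996) and to C1R (0.428, 0.996). WNT4 and CD36 were among the 4 nearest to both, at 0.568 and 0.643 for C1S and 0.563 and 0.630 for C1R. TSHZ2 was also near C1S (0.541) and SERPINA3 near C1R (0.531). SERPINA3, which encodes a secreted protease inhibitor, was nearest to CFB (0.271, r 0.996), followed by SAA1 (0.274), SLC9A9 (0.441) and PRODH (0.451). SAA1, which encodes serum amyloid A, was nearest to C3 (0.334, r 0.990), followed by SELENOP (0.397), SGPP2 (0.513) and PRODH (0.535). Among the complement genes, C1R and C1S were 0.451 apart (r 0.991) and C3 and CFB 0.537 apart (r 0.971). All points share the 3 culture groups. C1R and C1S were not above background in the co-culture or the PIK3CA-mutant line, nor was TSHZ2. FBXO32 and SELENOP were not above it in the PIK3CA-mutant line, WNT4 was above it on 2 of 4 co-culture and 0 of 4 PIK3CA-mutant arrays, and CD36 and CFB on 1 of 4 PIK3CA-mutant arrays. The distances therefore rest in part on signals at background, and the order of the nearest genes to C1R and C1S is not resolved there.

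**Figure D3:**
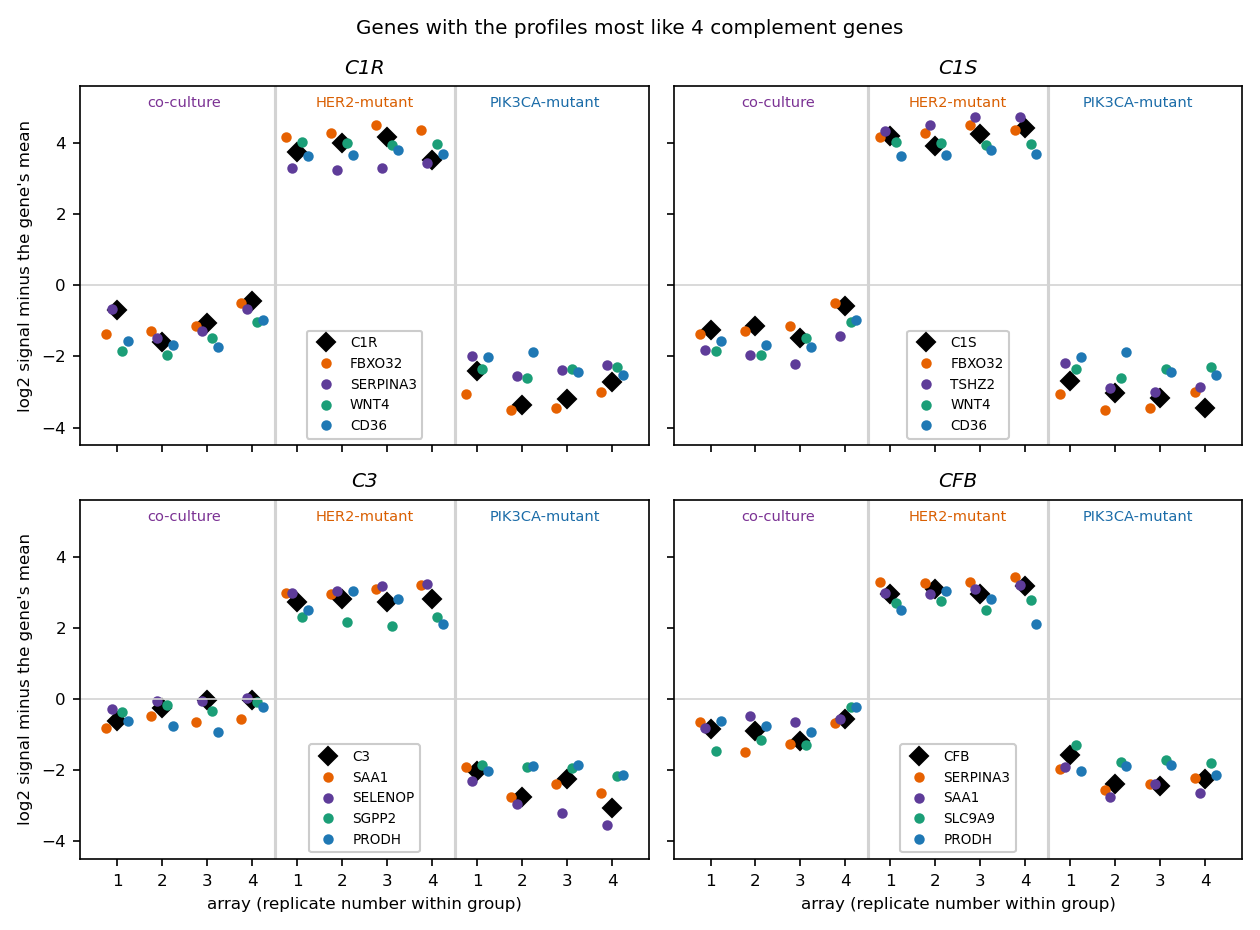
Log2 signal minus the gene's own mean (y axis) on each of 12 arrays (x axis, by group and replicate number) for C1R, C1S, C3 and CFB (black diamonds) and the 4 genes nearest to each (coloured points). In every panel the HER2-mutant arrays are above 2 and the PIK3CA-mutant arrays below -1, and the co-culture mean lies nearer to the PIK3CA-mutant than to the HER2-mutant mean.

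Most other complement genes were not above background in these cultures. Of 53 listed complement genes outside the 9, 47 had a probe set and 17 passed the filter. The C1 inhibitor gene SERPING1 was not among them, at 2.72 in the co-culture, 2.93 in the HER2-mutant line and 2.83 in the PIK3CA-mutant line, nor were CFD, the gene of factor D, and CFP, the gene of properdin. The list had been drawn up with earlier results of these data known. By limma over all genes tested, 2 of the 17 passed as higher and 2 as lower in the HER2-mutant than in the PIK3CA-mutant line, 1 and 1 in the co-culture against the HER2-mutant line, and 1 and 1 in the co-culture against the PIK3CA-mutant line. Over all genes 30% were higher and 29.5% lower in the first of these comparisons, 24.9% and 26% in the second, and 11.1% and 14.6% in the third. The medians of the 17 were 0.03, -0.09 and -0.05, beside 0.05, -0.05 and -0.02 over all genes.

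C1QBP, the gene of a mitochondrial protein that also binds C1q, was the one gene of the 17 above background on all 12 arrays. It was at 14.57 ± 0.07 in the co-culture, 13.90 ± 0.09 in the HER2-mutant line and 14.61 ± 0.05 in the PIK3CA-mutant line (mean ± SD, n = 4 each). The HER2-mutant line differed from the PIK3CA-mutant line by -0.71 ± 0.07 (SE, limma adjusted p 3.6e-09), and the co-culture was higher than the HER2-mutant line by 0.67 ± 0.07 (1.83e-08). SUSD4, which encodes a complement inhibitor of the membrane, was above background on 2 of 4 co-culture arrays and in neither single culture. It was at least 1.27-fold higher in the co-culture against the PIK3CA-mutant line (limma adjusted p 3.9e-05). SUSD4 also passed as higher in the HER2-mutant than in the PIK3CA-mutant line (0.000162). The co-culture, at 6.70, did not pass against the HER2-mutant line, at 6.40 (0.31, 0.238). HER2-mutant replicate 4 read 6.89 under a background level of 7.00. C5, FCN1 and COLEC11 also passed in a comparison, but were not above background on any array, so no fold is given. C4A was dim too, and its near copy C4B was not analysed here.

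Transcription factors with a known role at complement genes were mostly higher in the HER2-mutant line. Of 18 tested, 15 were higher and 0 lower there than in the PIK3CA-mutant line (limma, against 30% and 29.5% of all genes), with a median of 1.08 beside 0.05 over all genes. REL, an NF-kB subunit, was higher by 3.06 ± 0.11 (SE, adjusted p 6.06e-17), and its arrays read 10.86, 11.02, 11.30 and 11.11 in the co-culture, 12.56, 12.54, 12.29 and 12.31 in the HER2-mutant line and 9.49, 9.30, 9.38 and 9.30 in the PIK3CA-mutant line. The 3 groups of REL did not overlap. The forkhead factor FOXO1 was higher by 2.65 (8.2e-15), the NF-kB subunit RELB by 1.78 (5.83e-09) and the interferon regulatory factor IRF1 by 1.67 (2.69e-09). CEBPB (0.22, 0.115), NR1H3 (0.05, 0.786) and GATA1 (-0.12, 0.548) did not pass.

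The same list in the co-culture fell below the HER2-mutant line in 12 of 18 and was higher in 0 (against 26% and 24.9% of all genes), with a median of -0.70 beside -0.05 over all genes. FOXO1 differed by -1.74 (limma adjusted p 3.15e-11), FOXO3 by -1.38 (1.39e-12), REL by -1.35 (2.75e-10) and IRF2 by -1.09 (1.52e-07). IRF1 did not pass (0.26, 0.178). Against the PIK3CA-mutant line, 9 of 18 rose in the co-culture and 0 fell (against 11.1% and 14.6% of all genes), with IRF1 higher by 1.93 (4.55e-09) and REL by 1.71 (8.42e-11).

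Of the cytokines and receptors known to induce complement genes, some passed in each direction. Of 17 tested, 6 passed as higher and 4 as lower in the HER2-mutant line against the PIK3CA-mutant line, with a median of -0.01, against 30% and 29.5% of all genes and a median of 0.05. These shares are near those of all genes. The interleukin-1 receptor gene IL1R1 was higher by 3.53 ± 0.13 (SE, limma adjusted p 2.49e-16), at 7.07 ± 0.12 in the co-culture, 10.12 ± 0.09 in the HER2-mutant line and 6.59 ± 0.16 in the PIK3CA-mutant line (mean ± SD, n = 4 each). Also higher were the interleukin-6 receptor gene IL6R by 2.51 (1.73e-13), IFNGR1 by 1.38 (8.29e-11) and IL17RC by 1.32 (1.12e-08), which encode receptor chains for interferon gamma and interleukin-17. OSMR, the oncostatin M receptor gene, differed by -3.06 (4.32e-18), and LIFR was at least 2.82-fold lower in the HER2-mutant line (1.21e-10). IL6 passed as lower (4.87e-07) but was not above background in either line.

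In the co-culture, 7 of the 17 were higher and 6 lower than in the HER2-mutant line, against 24.9% and 26% of all genes. IL1B, the gene of interleukin-1 beta, was higher by 2.31 ± 0.22 (SE, limma adjusted p 7.18e-09), at 12.94 ± 0.52 in the co-culture against 10.63 ± 0.31 in the HER2-mutant line (mean ± SD, n = 4 each). OSMR was higher by 2.29 (1.43e-15) and LIFR at least 1.68-fold (4.3e-08). IL6 passed as higher (5.66e-09), at 6.25, 6.67, 6.62 and 5.29 in the co-culture, with 2 of 4 arrays above background, against 3.74, 3.35, 3.89 and 3.29 in the HER2-mutant line. IL1R1 differed by -3.05 (6.51e-15), IL6R by -1.64 (6e-10) and IFNGR1 by -1.35 (1.92e-10). Against the PIK3CA-mutant line 6 rose in the co-culture and 2 fell (against 11.1% and 14.6% of all genes), with IL1B higher by 1.93 (7.95e-07).

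Genes of GPI anchor synthesis, on which CD55 and CD59 depend passed in both directions. Of 27 tested, 9 passed as higher and 4 as lower in the HER2-mutant line against the PIK3CA-mutant line by limma, with a median of 0.12, against 30% and 29.5% of all genes and a median of 0.05. PIGC, a subunit of the enzyme of the first step, was higher by 1.53 ± 0.12 (SE, adjusted p 2.65e-10), and PGAP3, which remodels the anchor lipid, passed as higher (9.48e-07) with only 1 of 4 HER2-mutant arrays above background. In the co-culture 4 were higher and 11 lower than in the HER2-mutant line (against 24.9% and 26% of all genes), with PIGC at -1.14 (6.47e-08). Against the PIK3CA-mutant line 3 were higher and 1 lower (against 11.1% and 14.6%).

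**Figure D4:**
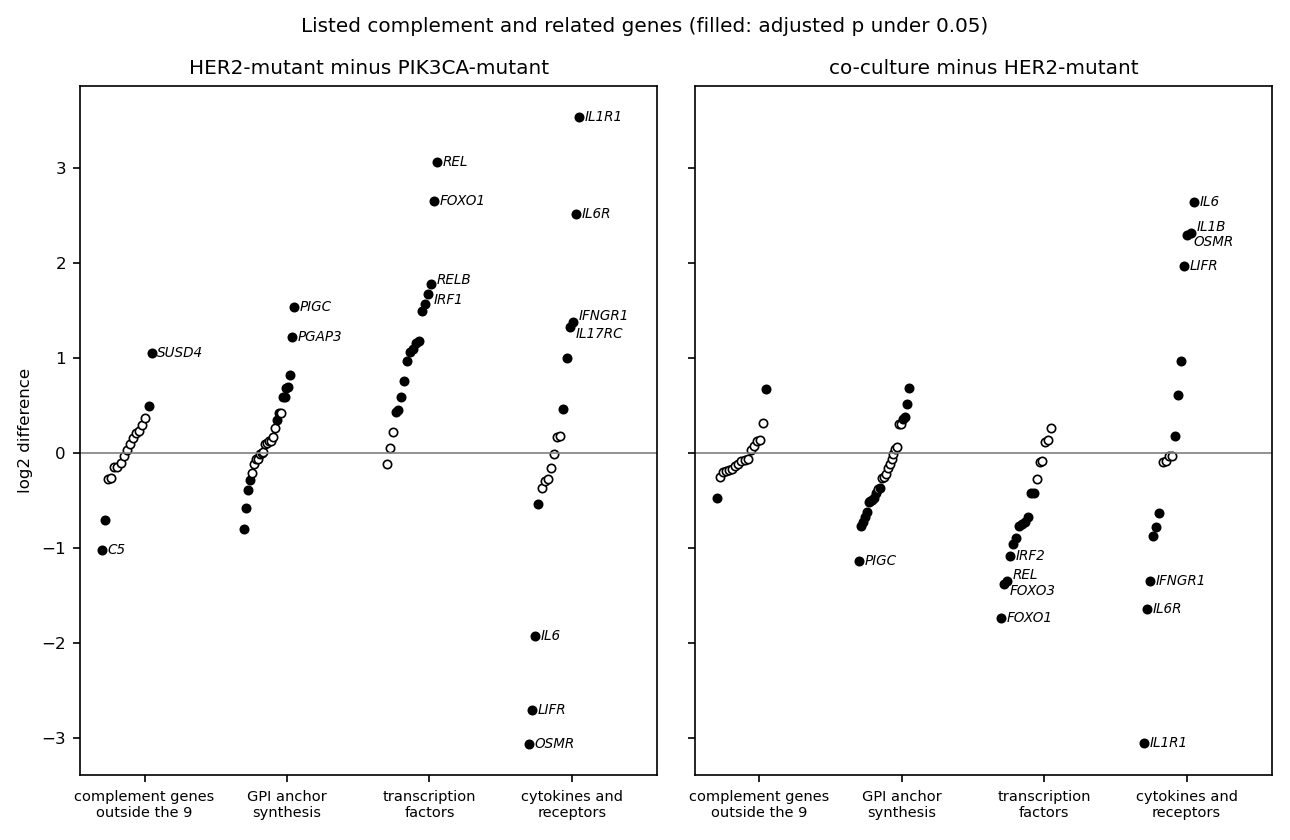
Log2 difference (y axis) of each tested gene outside the 9, by list (x axis), for HER2-mutant minus PIK3CA-mutant (left) and co-culture minus HER2-mutant (right); filled points passed limma at an adjusted p under 0.05, and the named genes also differed by at least 1, with up to 4 per list and direction. Most transcription factors lie above 0 on the left, where 15 of 18 passed as higher, and below 0 on the right, where 12 passed as lower; LIFR, IL6, C5, SUSD4 and PGAP3 were not above background in at least 1 of the groups, so their points are measured values and not folds.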

How the data were processed

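RNA was measured in 12 cultures, 4 per group, on whole-transcript arrays, from 5 µg of column-purified RNA per the labels' protocols. The authors deposited log2 signals per probe set. The submitters' processing notes name the Transcriptome Analysis Console. The version and the methods of background correction, summarization and normalization are not given in the sources used here. The labels say that each group was grown in quadruplicate, not whether on separate days or passages, so p-values measure only the spread between these arrays, whose number limits the precision.

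Of 24351 probe sets, 17709 were named for 1 gene. The brightest stood for each of the 20 genes with several. All 17709 matched RefSeq by Entrez ID, and 0 symbols changed. In limma 3.58.1 (R 4.3.3), 1 model of the 3 groups with empirical Bayes moderation and a trend was fitted to 12758 genes on all 12 arrays, with two-sided p-values adjusted by Benjamini-Hochberg over all of them and a threshold of 0.05. Standard errors are moderated. A fold given as "at least" sets the brighter group's mean against the dim group's, with each dim array raised to its negative-control 95th percentile; for CFB, dim on 3 of 4 PIK3CA-mutant arrays, this was added after the values were seen.

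The 9 genes, the lists and the tests were chosen with earlier results of these data known. Of the lists, genes past the threshold with a difference of at least 1 are named, up to 4 per list, direction and comparison, and others were named after their values were seen. Alternatives were other filters, scalings, spread estimates, blends and left-out arrays, and the fit was tested on simulated data.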

Additional observations from a re-analysis of the deposited data

Results flagged for a closer look

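In the co-culture, 1 array of CD55 stood apart from the other 3, with a gap to the nearest of 0.981 of the range of the group. The range itself was small, from 13.40 to 13.47. Of 27 groups of 4 arrays examined over the 9 genes, 1 was picked out, and chance picks out about 1 in 20.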

How the results depend on the processing

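The 31 differences of named listed genes kept their direction and their side of the threshold under each alternative that gave a value. The filter at the 50th percentile gave none for C5 and IL6 between the lines or for IL6 in the co-culture against the HER2-mutant line, since both genes left the fit. The counts of complement genes without overlap stayed the same under the alternatives run on them, except those of the co-culture against the PIK3CA-mutant line, where 2 lay below after median centring. Leaving out 1 array gave 5 to 6 above and 1 to 2 below there, and 5 to 6 genes at least 1 below the blend. Blends of 50% and 90% HER2-mutant cells and subtraction of negative controls gave 5, 6 and 6. Tested against a margin of 0.5, the listed genes outside the 9 that passed were 19 higher and 5 lower between the lines (32 and 10 without the margin), 5 and 12 in the co-culture against the HER2-mutant line (12 and 30), and 5 and 0 against the PIK3CA-mutant line (19 and 4). Over all genes the margin left 1561 and 1963, 1331 and 938, and 192 and 247. Without co-culture replicate 4, 7 listed genes were lower in the co-culture against the PIK3CA-mutant line, in a range of 3 to 7 over the left-out arrays. The fewer calls under the margin follow from the stricter test, and the cause of the other changes was not tested.

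Replicate numbers are shared between groups, but same-numbered arrays deviated together with correlations of only -0.034 to 0.06, and 5 of 24 best partners had the same number, so the numbers do not pair the arrays. With the replicate number as a block, 32 listed genes were higher and 11 lower between the lines.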
